A study of Mus musculus with 4 samples.

Results

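Primitive streak and mesoderm factor genes were taken as a fixed list of 10 genes: Eomes, Tbx6, Mesp1, Mesp2, Msgn1, Mixl1, Gsc, Evx1, Lhx1 and Pdgfra. Overlapping ATAC-seq peaks of all 4 libraries were merged into 40910 union regions. Each region went to the nearest protein-coding transcript start within 100 kb (GENCODE release M21, mm10), which placed 35041 regions, and 34 of these lay nearest to one of the 10 genes. Just inside the limit was a region 98.7 kb upstream of Eomes, with a peak of 5.47-fold in d4 replicate 1 alone. Just outside were a region 110.0 kb from Lhx1, with a peak of 6.56-fold in d2 replicate 2 alone, and one 119.0 kb from Pdgfra, with a peak of 5.16-fold in d4 replicate 2 alone.

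The cells were ES-E14TG2a mouse embryonic stem cells (mESCs, a feeder-free line) of WT genotype, put through cardiogenic differentiation in serum-free medium. There were 2 libraries from d4 and 2 from d2. The labels give the day alone. From the timing of the protocol steps, d4 is inferred to follow reaggregation with Activin A, BMP4 and VEGF, and d2 to precede it. Replicates came from independent differentiation experiments, and both time points share the line and the genotype. In such bulk samples, fewer open cells of a type and less open chromatin per cell cannot be told apart.

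ATAC-seq marks open chromatin by the insertion of a transposase. During gastrulation, Nodal/Activin, Wnt and BMP signals induce the T-box factor Eomes and the homeobox factors Mixl1, Gsc, Evx1 and Lhx1 in the primitive streak. The bHLH factors Mesp1 and Mesp2 mark nascent mesoderm, from which heart and head mesoderm derive, while Tbx6 and Msgn1 act in presomitic mesoderm. Pdgfra, a receptor tyrosine kinase for platelet-derived growth factors, is a surface marker of mesoderm.

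Accessible regions at these genes were mostly of low fold and seldom called in all libraries. Of the 34 regions, 7 were called in each d4 library and not at d2 (20.6%, against 8.48% of all assigned regions). A further 3 were called in each d2 library and not at d4 (8.82%, against 13.2%), and 2 were called in all 4 libraries (5.88%, against 31.9%). The other 22 regions had mixed patterns, and 15 of the 34 rested on 1 library (44.1%, against 34.5%). Eomes and Gsc had regions of both single-time-point patterns, Evx1, Lhx1 and Pdgfra had d4 regions only, and Tbx6, Mesp1, Mesp2, Msgn1 and Mixl1 had neither. With 2 libraries per time point no test of single regions between d4 and d2 was made, so these counts are descriptions. The order of the d4-only and d2-only counts depended on single libraries and on the threshold. Without d2 replicate 1 there were 7 d4-only and 8 d2-only regions (23.3% and 26.7%, against 11.2% and 26.1% of all assigned regions). Without d2 replicate 2 there were 7 and 7 (23.3% each, against 10.6% and 28.3%). Without d4 replicate 2 there were 12 and 6 (36.4% and 18.2%, against 16.9% and 16.8%). Leaving out a library thus also moved the shares over all regions. With −log10 q of at least 10 there were 0 d4-only and 2 d2-only regions among 11 (0.0% and 18.2%, against 7.1% and 11.6%). Both lay at Eomes. Its region 71.8 kb upstream stayed d2-only. Its region 8.53 kb downstream, called in all 4 libraries before, lost its d4 peaks (−log10 q of 3.05 and 6.32) to this threshold. The d2-only regions of Gsc dropped out. Every region within 100 kb of a member start was also counted, whatever gene was nearest (chosen after seeing the data). Of these 82, 9 were d4-only, 11 d2-only and 20 called in all 4 libraries. The shares were 11.0%, 13.4% and 24.4%, against 8.48%, 13.2% and 31.9% of all assigned regions.

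**Figure D1:**
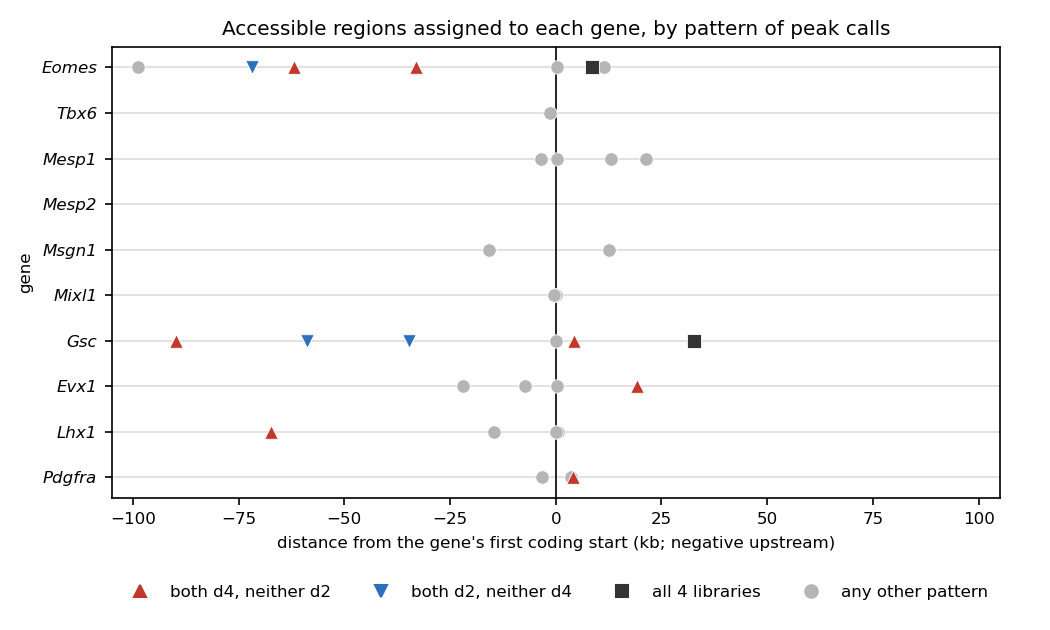
Each row is a gene and the horizontal axis is the distance of each accessible region from the first coding start in kb, negative upstream. Red triangles are the 7 regions called in both d4 and neither d2 library, blue triangles the 3 called in both d2 and neither d4 library, black squares the 2 called in all 4, and grey circles the other 22. Single-time-point regions lie at Eomes, Gsc, Evx1, Lhx1 and Pdgfra, and the row of Mesp2 is empty.

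The reference genome sequence at the 6 d4 regions far from a promoter is shown for each of them. It was cut at the peak summits and was not read from these cells. For comparison, 1 d2 region of Eomes and 1 region between Mesp1 and Mesp2 are added. The other 2 d2-only regions, both of Gsc, held none of the marked letters and are not shown. Each line holds 201 bases centred on the highest peak summit, 5′ to 3′ on the plus strand of mm10. Capitals mark letters known from 4 kinds of factor, searched on both strands. For GATA factors these were AGATAA, with the variant spelling AGATAG and the further variant spelling TGATAA. For TCF/LEF factors they were CTTTGAT, for FOXH1 they were AATCCACA and the variant spelling AATACACA, and for T-box factors they were GGTGTGA. Over all 34 windows, 0 marked matches overlapped another.
Eomes, 61.9 kb upstream, d4, chr9:118416088-118416288: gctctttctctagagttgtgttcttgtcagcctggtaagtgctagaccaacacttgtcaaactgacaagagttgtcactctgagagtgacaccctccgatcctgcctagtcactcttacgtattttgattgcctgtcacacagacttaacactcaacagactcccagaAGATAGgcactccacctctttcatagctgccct
Eomes, 33.0 kb upstream, d4, chr9:118444894-118445094: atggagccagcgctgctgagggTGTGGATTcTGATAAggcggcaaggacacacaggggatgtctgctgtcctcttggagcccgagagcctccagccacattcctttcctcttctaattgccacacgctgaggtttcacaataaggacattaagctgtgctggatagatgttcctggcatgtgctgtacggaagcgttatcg
Gsc, 89.7 kb upstream, d4, chr12:104563065-104563265: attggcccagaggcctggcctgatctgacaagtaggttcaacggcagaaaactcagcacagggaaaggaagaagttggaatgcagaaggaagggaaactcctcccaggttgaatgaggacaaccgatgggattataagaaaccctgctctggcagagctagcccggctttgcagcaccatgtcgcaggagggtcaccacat
Gsc, 4.31 kb downstream, d4, chr12:104468786-104468986: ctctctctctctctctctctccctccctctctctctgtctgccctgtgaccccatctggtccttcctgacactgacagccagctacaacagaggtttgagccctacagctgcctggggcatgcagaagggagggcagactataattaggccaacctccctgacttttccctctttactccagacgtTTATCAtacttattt
Evx1, 19.3 kb downstream, d4, chr6:52332705-52332905: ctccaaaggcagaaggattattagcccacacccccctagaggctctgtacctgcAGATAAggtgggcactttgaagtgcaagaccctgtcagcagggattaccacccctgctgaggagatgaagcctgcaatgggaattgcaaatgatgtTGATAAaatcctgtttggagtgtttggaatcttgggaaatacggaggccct
Lhx1, 67.4 kb upstream, d4, chr11:84593039-84593239: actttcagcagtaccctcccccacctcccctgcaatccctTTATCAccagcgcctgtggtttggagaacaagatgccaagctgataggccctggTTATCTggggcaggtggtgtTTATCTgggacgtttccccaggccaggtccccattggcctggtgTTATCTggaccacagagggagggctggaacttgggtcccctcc
Eomes, 71.8 kb upstream, d2, chr9:118406110-118406310: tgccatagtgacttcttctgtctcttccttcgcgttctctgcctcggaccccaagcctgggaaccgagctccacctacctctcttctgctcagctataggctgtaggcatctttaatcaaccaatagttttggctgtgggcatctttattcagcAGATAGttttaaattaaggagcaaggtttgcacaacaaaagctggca
Mesp1, 3.41 kb upstream, d4 replicate 1 only, chr7:79797156-79797356: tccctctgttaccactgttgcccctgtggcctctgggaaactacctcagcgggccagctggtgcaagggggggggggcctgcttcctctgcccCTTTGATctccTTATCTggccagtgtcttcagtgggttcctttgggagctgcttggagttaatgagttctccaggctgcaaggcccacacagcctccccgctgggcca

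GATA letters stood in 5 of the 7 d4 regions: both of Eomes, the nearer one of Gsc, and those of Evx1 and Lhx1. The Lhx1 region held 4 copies of the searched spellings and the Evx1 region 2. The spelling TGATAG was not searched, and it stands unmarked in the Lhx1 window. The Gsc region 89.7 kb upstream and the d4 region of Pdgfra held none. Among all regions with this pattern, 56.7% of 2972 had GATA letters in a window of the same length, so the members' 71.4% is read against that share and not against the 17.5% of all assigned regions. Within 50 bp of the summit, 2 of the 7 had GATA letters, against 39.4% of all such regions. Of the 3 d2-only regions, 1 had GATA letters within 100 bp, the Eomes region shown (33.3%, against 11.1% of all 4638 d2-only regions).

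Across all 34 regions, GATA letters stood in 9 (17.5% of all assigned regions) and TCF/LEF letters in 3 (2.45%). FOXH1 letters stood in 1 (1.08%) and T-box letters in 1 (2.94%). The FOXH1 match was at the Eomes region 33.0 kb upstream, next to its GATA match. The T-box match was at the region 11.4 kb downstream of Eomes. The TCF/LEF matches were at the region between Mesp1 and Mesp2, where a GATA match followed it, at the upstream region of Mixl1 and at the region of Tbx6. Other families were searched but not marked. Bicoid-type homeobox letters (TAATCC) stood in 5 of the 34 (14.7%, against 4.99%) and in 2 of the 7 d4 regions (28.6%, against 5.48%). E-box letters stood in 7 (17.5% of all), SMAD GC letters in 4 (12.3%) and TEAD letters in 3 (11.2%). AP-1 letters stood in 1 (5.66% of all) and SOX letters in 1 (5.06%). Letters of 4 families stood in 0: ETS (2.81% of all), octamer (1.64%), forkhead (2.82%) and SMAD palindrome (0.183%). For ETS only CAGGAAGT was searched. With shares this low over all regions, counts of 0 or 1 among 34 do not set the members apart. All of these are matches of letters in a window, and binding was not measured.

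Eomes, a T-box factor needed for definitive endoderm and cardiac mesoderm, had the most regions (8). Its 2 d4 regions were intergenic. The region at chr9:118416075-118416328, 61.9 kb upstream of the first start, had fold enrichments of 5.73 and 6.93 in d4 replicates 1 and 2 (pileups of 13 and 14) and no peak in either d2 library. The region at chr9:118444913-118445209, 33.0 kb upstream, had 7.48 and 6.77 in d4 replicates 1 and 2 (pileups of 14 and 13) and no peak at d2. Fold enrichment is the read pileup at the summit over the local background, each plus 1, as the peak caller wrote it. Both regions were present in each d4 replicate at similar height.

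Farther upstream lay the peak with the highest fold of the 10 genes. The intergenic region at chr9:118406100-118406455, 71.8 kb upstream of Eomes, had no peak in either d4 library, against 9.84- and 12.5-fold in d2 replicates 1 and 2 (pileups of 20 and 26). Upstream of Eomes, 2 regions were thus called at d4 only and 1 at d2 only. The sequence window shown for this d2 region was mostly masked as repeats in the reference genome (71.1% of its bases). Among the 34 member windows it was the only 1 that was mostly masked (2.94%, against 1.31% of all assigned regions). The part of repeats in this peak was not tested.

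At the Eomes gene itself, peaks were called at both time points. The region over an internal start and coding exon, chr9:118478531-118479783, had no peak in d4 replicate 1 and 5.09-fold in d4 replicate 2, against 5.32- and 10.1-fold in d2 replicates 1 and 2. Its pileup of 35 in d2 replicate 2 was the highest of the 10 genes. The region 8.53 kb downstream of the first start, chr9:118486741-118487132, in a noncoding exon of the antisense gene Gm33460, was called in all 4 libraries. The d4 replicates had 3.84- and 5.44-fold enrichment, against 7.81- and 6.99-fold in the d2 replicates. Both d4 values lay below both d2 values, an order that 30.4% of all regions called in every library had, while 13.0% had the opposite order. The same order held at this Eomes region on 3 other scales, but its share over all regions moved with the scale. The d4 values were below the d2 values at 54.6% and above at 4.18% of all such regions by pileup over the genome background, at 28.3% and 16.0% by percentile of fold, and at 20.1% and 23.5% by fold over the median of these regions. The other 3 Eomes regions each had a peak in 1 library, or in 1 of each time point, at folds of 5.47 to 6.79.

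Tbx6, a T-box factor that directs presomitic mesoderm, had 1 region, 1.27 kb upstream in a coding exon of Ypel3, with 7.16-fold in d2 replicate 1 alone. Its start is in a gene-dense stretch: 18 regions lay within 100 kb of it, 17 of them nearer to another gene, and 8 of the 18 were called in all 4 libraries. No library had a peak within 1 kb of the Tbx6 start.

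The bHLH genes had little called DNA. Mesp1 had 4 regions and each rested on 1 library. The region in its coding exon, chr7:79793318-79793501, 287 bp from the start, had 5.90-fold in d2 replicate 2 alone. The region 3.41 kb upstream had 5.94-fold in d4 replicate 1 alone, and those 13.0 and 21.3 kb downstream, inside Wdr93, had 7.58- and 7.36-fold in d2 replicate 1 alone. Mesp1 and Mesp2 are neighbours with starts 16.9 kb apart. Mesp2, which acts in somite boundary formation, had no region, and the nearest one lay 13.3 kb from its start, between the genes, and was assigned to Mesp1.

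Msgn1, a bHLH factor of presomitic mesoderm, had 2 regions and no peak within 1 kb of its start. The region 12.5 kb downstream, in an exon of the noncoding gene 9530020I12Rik, had no peak in d4 replicate 1 and 7.45-fold in d4 replicate 2, against 7.53- and 6.21-fold in d2 replicates 1 and 2. The region 15.8 kb upstream had 5.49-fold in d4 replicate 1 alone. Neither separated the time points.

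Mixl1, a homeobox factor of the streak that acts in endoderm and mesoderm formation, was the 1 member with a peak within 1 kb of its start in all 4 libraries. These peaks fell in 2 regions that did not overlap. The region over the start, chr1:180696520-180697228, had 6.82-fold in d4 replicate 1 and no peak in d4 replicate 2, against 7.94- and 6.23-fold in d2 replicates 1 and 2. The region 308 bp upstream, chr1:180697342-180697555, had 6.93-fold in d4 replicate 2 alone. By regions, therefore, Mixl1 had no shared call, and by promoter it was accessible in every library.

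Gsc, the homeobox factor goosecoid of the organizer and anterior streak, had 6 regions, of which 5 were either shared or called at 1 time point. Its d4 regions lay on either side of the gene. The region at chr12:104563028-104563370, 89.7 kb upstream, had 8.15- and 7.49-fold in d4 replicates 1 and 2, and the one at chr12:104468847-104469022, 4.31 kb downstream, had 5.72- and 6.25-fold, with no d2 peak in either. Its d2 regions lay between the upstream one and the gene.

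The region at chr12:104508023-104508270, 34.7 kb upstream of Gsc, had no d4 peak, against 5.92- and 9.27-fold in d2 replicates 1 and 2. The region at chr12:104532101-104532261, 58.8 kb upstream, had no d4 peak, against 5.76- and 4.75-fold in d2 replicates 1 and 2, on pileups of only 9 and 7. Gsc therefore had 2 regions of each kind, with a net of 0. Its shared region, chr12:104440183-104440570, 32.8 kb downstream, reached 6.75- and 10.9-fold at d4 (replicates 1 and 2), against 9.50- and 8.09-fold at d2. The groups overlapped there, and the 2 d4 replicates were farther apart than the d2 replicates. The region in the first coding exon, chr12:104472904-104473276, was among the weakest, with no peak in d4 replicate 1 and 3.99-fold in d4 replicate 2, against 4.79- and 5.11-fold in d2 replicates 1 and 2.

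Evx1, a homeobox factor of the posterior streak, had 4 regions, 1 of them at d4 only. That region, chr6:52332760-52332906, 19.3 kb downstream, had 5.70- and 5.73-fold in d4 replicates 1 and 2 (a pileup of 9 in each) and no peak at d2. The region in the 5′ UTR, chr6:52313678-52313805, which also lies in an intron of the antisense gene Evx1os, had 5.25-fold in d2 replicate 1 alone. The upstream regions, 22.0 and 7.23 kb away, were not called in both replicates of either time point.

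Lhx1, a LIM-homeobox factor needed for head formation, had its 1 replicated region far upstream. The region at chr11:84592886-84593244, 67.4 kb upstream, had 7.07- and 7.44-fold in d4 replicates 1 and 2 (pileups of 14 and 15) and no peak at d2. At the gene, the region over the start, chr11:84525495-84525629, and the one 575 bp downstream, chr11:84524843-84524960, both in the 5′ UTR, had 6.44- and 4.75-fold in d4 replicate 1 alone. The region 14.6 kb upstream had 5.59-fold in d2 replicate 2 alone. Lhx1 thus had calls within 1 kb of its start in 1 of 2 d4 replicates and in no d2 library.

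Pdgfra had its replicated region inside the gene. The region at chr5:75156282-75156502, in the 5′ UTR 3.99 kb downstream of the first start and 331 bp upstream of an internal one, had 5.45- and 4.78-fold in d4 replicates 1 and 2 (pileups of 15 and 13) and no peak at d2. The region over another internal start, chr5:75155796-75155956, had 4.36-fold in d4 replicate 1, against 5.06-fold in d2 replicate 2. The region 3.23 kb upstream of the first start had the highest fold of the gene, 7.26, in d2 replicate 2 alone. The first start itself had no region within 1 kb. The d4 region of Pdgfra was the only one of the 7 within 1 kb of a coding start, and that start is internal.

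**Figure D2:**
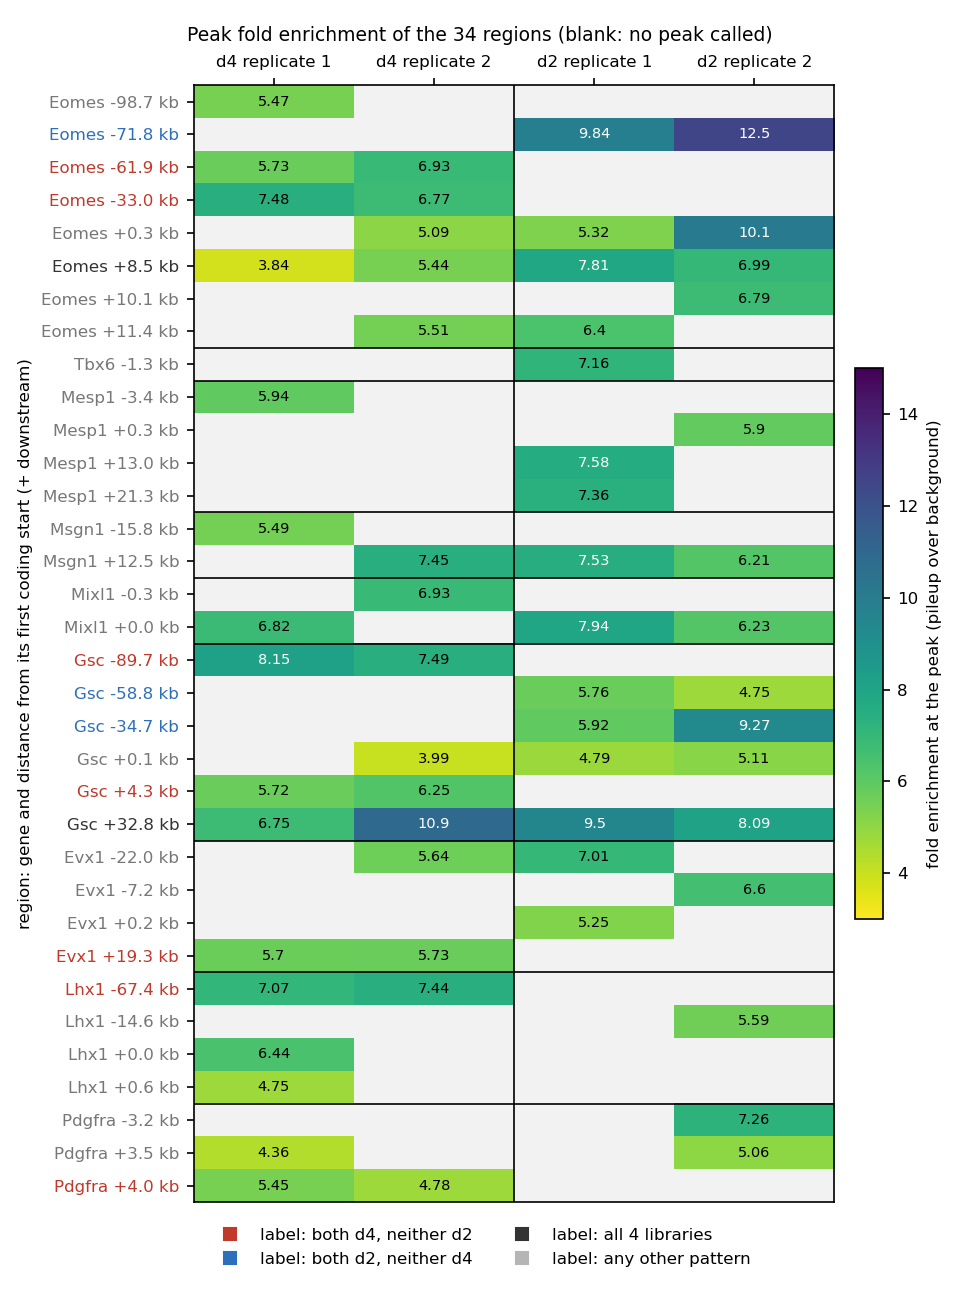
Rows are the 34 regions by gene, with the distance from the first coding start in kb (positive downstream), and columns are the 4 libraries, d4 left of d2. Colour and number give the fold enrichment of the strongest peak of the region in that library, and a blank cell had no peak. Row labels are red for regions in both d4 and neither d2 library, blue for the reverse, black for all 4. The highest value, 12.5, is the Eomes region 71.8 kb upstream in d2 replicate 2.

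The members' counts stood farthest from those of all genes near the starts, as a description with no test. Of their 34 regions, 10 lay within 1 kb of a coding start (29.4%, against 44.6% of all assigned regions). None of these 10 was called in all 4 libraries, against 59.8% of all such promoter regions, and 1 was called at d4 only, against 1.70%. Of the 24 distal regions, 2 were called in all 4 libraries (8.33%, against 9.48%), 6 at d4 only (25.0%, against 14.0%) and 3 at d2 only (12.5%, against 17.0%). Counted by gene, 7 of the 10 members had a promoter peak in at least 1 library (70.0%, against 62.3% of 21864 protein-coding genes) and 1 had it in all 4 (10.0%, against 46.1%). The median GC content of the promoter windows was 68.4% for the members, against 65.7% for all genes.

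**Figure D3:**
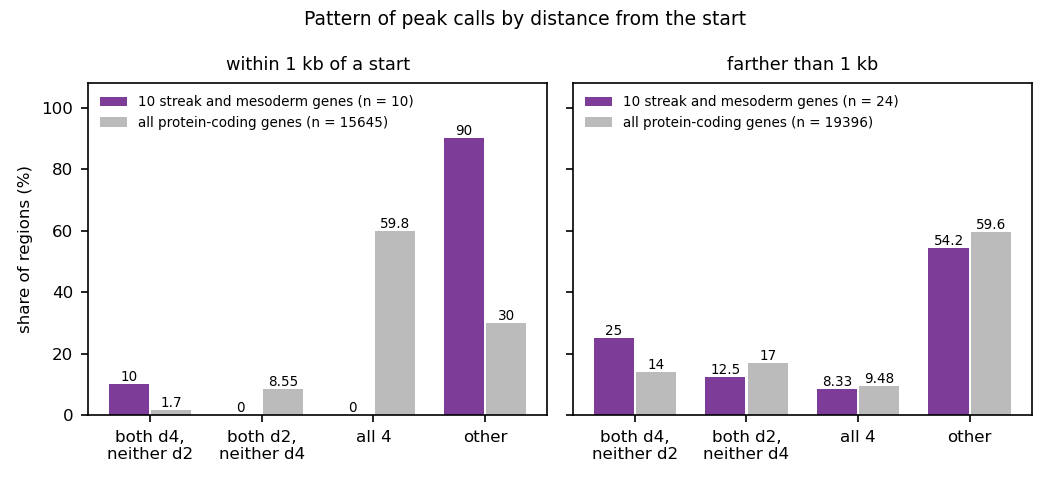
Bars give the share of regions, in percent, with each pattern of peak calls, for the 10 genes (purple) and for all protein-coding genes (grey), within 1 kb of a start (left) and farther away (right). Within 1 kb, 59.8% of all regions but none of the 10 member regions were called in all 4 libraries. Farther away, the d4-only share was 25.0% for the members, against 14.0%.

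Member peaks had low folds beside all assigned regions, a set with more promoters. The median fold of the strongest peak per region was 5.73 and 6.25 in d4 replicates 1 and 2, and 7.16 and 6.60 in d2 replicates 1 and 2, beside medians over all assigned regions of 8.16 and 8.16 at d4, and 7.88 and 8.81 at d2. Of 16 and 15 member regions called in d4 replicates 1 and 2, 0 and 1 were above the median of all assigned regions, against 3 of 15 in each d2 library. Among distal regions alone the gap was smaller in 3 libraries: the members' median fold was 5.73 and 6.77 at d4 (replicates 1 and 2), beside 7.18 and 7.14 over all distal regions, and 7.36 and 6.89 at d2, beside 7.01 and 7.53. In d2 replicate 1 the distal members were thus the higher. Within 1 kb of a start the members' medians were lower in every library, on 4 or 5 regions each. They were 5.45 and 4.93 in d4 replicates 1 and 2, beside 9.26 and 9.19 over all promoter regions. In d2 replicates 1 and 2 they were 5.29 and 5.90, beside 8.85 and 10.0. Within the d4-only pattern the lower of both folds had a median of 5.73 over the members, and 6.81 over all 2972 regions. Weak peaks rest on few reads: member summits had median pileups of 14 and 14 at d4, and 14 and 13 at d2, and the smallest pileup called was 7 at d4 and 6 at d2.

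**Figure D4:**
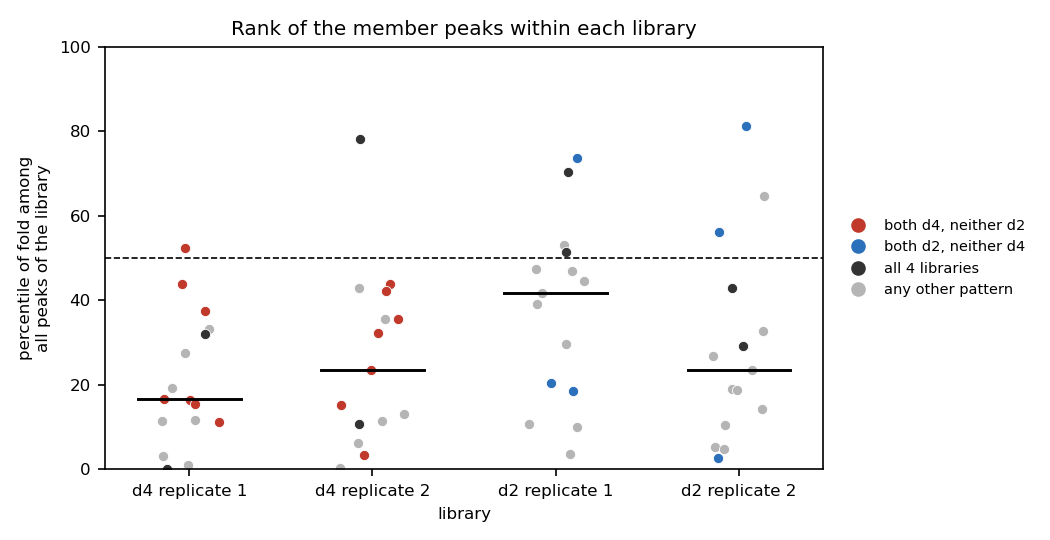
Each point is a member region called in that library, placed at the percentile of its fold enrichment among all peaks of the library (vertical axis, 0 to 100), with colours for the pattern of calls. The black bar is the median over the member regions and the dashed line the middle of the library. The medians were 16.5 and 23.4 in d4 replicates 1 and 2, and 41.8 and 23.5 in d2 replicates 1 and 2.

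Depth differed between the time points. The genome background of the d2 libraries was 0.752 and 0.64 of that of d4 replicate 1, and of d4 replicate 2 it was 0.985, although the d4 libraries had 22511 and 21299 peaks and the d2 libraries 26865 and 24544. If the 7 d4 regions had the same pileup over background at d2, they would have reached pileups of 5.8 to 12.9 (median 9.77) there, and 1 of these 14 values, for Evx1 in d2 replicate 2, fell below the smallest pileup called. The 3 d2 regions would have reached 11.3 to 33.6 at d4, and none of these 6 values was below the smallest called. The d4 region of Evx1 was the one nearest to this limit. The limit is the smallest pileup called anywhere in a library, and where the local background is higher a call needs a higher pileup. These counts therefore cannot show how many calls depth could remove. The part of depth in the calls was not tested further.

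Among 32 other streak and mesoderm genes, such as T, Nodal, Foxa2 and Dll1, 29 had at least 1 region. Their 115 regions included 16 at d4 only (13.9%, against 8.48% of all assigned regions) and 18 at d2 only (15.7%, against 13.2%). In all 4 libraries 12 were called (10.4%, against 31.9%). Aplnr, the apelin receptor of early mesoderm, had 3 d4-only and 0 d2-only regions of 8. Foxa2, a forkhead factor of the anterior streak and endoderm, had 1 and 4 of 11, and Nodal, Lhx5 and Otx2 had 0 and 2 each, of 4, 5 and 6 regions. The other genes differed by at most 1 region between the patterns. By count, this wider list had slightly fewer d4-only than d2-only regions, where the 10 members had more. Beside all assigned regions, the d4-only share was higher in both lists. The d2-only share was higher in the wider list and lower in the members.

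Marker genes of other cell types were read from peaks within 1 kb of a start. Of 8 pluripotency genes, 2 and 3 had one at d4 (replicates 1 and 2), against 7 and 7 at d2. Of 8 endothelial genes, 5 and 5 had one at d4, against 4 and 4 at d2, with Tie1 at none. The remaining lists held 4 genes each. Haematopoietic and neural genes had 3 in every library. Cardiac genes had 2 and 2 at d4, against 1 and 2 at d2. Endoderm genes had 1 and 1, against 2 and 2, and primed epiblast genes 2 and 2, against 2 and 4. Of the 10 members, 3 and 4 had one at d4, against 4 and 5 at d2. All protein-coding genes also had fewer such promoters at d4, 11242 and 11199 of 21864, against 12493 and 12842 at d2. The part of other cell types in these calls was not tested.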

How the data were processed

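ATAC-seq peak lists of 4 libraries, 2 from d4 and 2 from d2, were analysed, grouped by their labels. From the methods and the submitters' notes, the authors used FastQC for quality, cutadapt for trimming and Bowtie2 for alignment to mm10. They filtered out mitochondrial reads, duplicates and reads with several positions. MACS2 called peaks per library, and blacklisted peaks were discarded. Both a paired-end mode and a shift and extension of reads are named, and which was applied was not tested. The deposited fold enrichment is a ratio of pileup to local background, each plus 1. The deposited −log10 p and −log10 q are those of the authors' caller, with peaks kept at q of at most 0.001, and the deposited score, which follows −log10 q, was not used.

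Pileups were solved from the fold and −log10 p (whole for 100% of peaks, within 0.01). Peaks sharing at least 1 bp were merged and assigned to GENCODE M21 starts with Python 3.11.15, pandas 2.3.3, numpy 2.4.6 and scipy 1.17.1, checked on simulated peaks. Motif letters of 14 families were searched within 100 bp of summits in the GRCm38 sequence. The members and lists were chosen with earlier results of these data known. All 10 members were named, with positions for regions within 1000 bp of a start or called at 1 time point only, and of 32 other genes those with a net of at least 2 regions. Depth as read totals was not given in the sources used here. Alternatives changed the call threshold, merging, assignment, distance, scale of fold, motif window and libraries.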

Additional observations from a re-analysis of the deposited data

How the results depend on the processing

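The 7 d4-only, 3 d2-only and 2 shared regions rested on weak peaks and on the assignment. Requiring peaks to cover 50% of the widest peak left 0 shared regions (against 23.0% of all regions), and −log10 q of at least 5 left 1 (3.12%, against 33.3%). At −log10 q of at least 10 there were 0 d4-only and 0 shared regions of 11 (against 7.1% and 35.8% of all regions). With the top 15000 peaks of each library there were 2 and 0 of 17 (11.8% and 0.0%, against 9.41% and 36.5%). In both settings the net of d4-only minus d2-only regions at Eomes was −2, opposite to its 1. At −log10 q of at least 10, 1 of the 2 d2-only regions behind this had been called in all 4 libraries. It became d2-only because its d4 peaks fell below the threshold. With the nearest start of any gene type, 15 regions remained assigned to members, with 2 d4-only, 0 d2-only and 0 shared. These were 13.3%, 0.0% and 0.0%, against 9.67%, 13.7% and 28.8% of all regions. With a limit of 50 kb, 4 of 28 were d4-only and 1 d2-only (14.3% and 3.57%, against 7.29% and 12.9%). Counting any region within 100 kb of a member start, whatever gene was nearest, a choice made after seeing the data, gave 82 regions. Of these, 9 were d4-only, 11 d2-only and 20 shared (11.0%, 13.4% and 24.4%, against 8.48%, 13.2% and 31.9% of all assigned regions). Without 1 library at a time, d4-only regions numbered 7 to 12, d2-only 4 to 8 and shared 2 to 5. Without d4 replicate 2 there were 12 d4-only and 6 d2-only regions, and without d4 replicate 1 there were 5 shared (17.2%, against 37.2% of all regions). Without d2 replicate 1 there were 7 d4-only and 8 d2-only, and without d2 replicate 2 there were 7 of each. Over all regions the d2-only share also rose, from 13.2% to 26.1% and 28.3% without d2 replicates 1 and 2. The d4-only share over all regions rose from 8.48% to 15.3% and 16.9% without d4 replicates 1 and 2. With a motif window of 50 bp on each side, GATA letters stood in 2 of 7 d4-only regions, against 5. Of 130 values per gene and setting, 103 were as first given, 25 moved and 2 reversed, both at Eomes. Most of the 103 came from genes with a net of 0 from the start, such as Mesp2, Mixl1 and Msgn1, each unchanged in 13 settings. At Eomes, Evx1, Lhx1 and Pdgfra, each with a net of 1, only 8 of 13 settings per gene were as first given. No paired analysis was possible because the counts come from no test. The labels also do not say whether libraries of d2 and d4 with the same replicate number share an experiment. The cause of these changes was not tested, and with summit pileups of 7 to 35 a missing call is not absence.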
